A study of Mus musculus with 8 samples.

Results

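The 10 genes described here encode the precursors and receptors of the opioid and tachykinin peptides, chosen by name from the 15705 genes of the deposited table. They are the precursor genes Tac1, Pdyn, Penk and Pnoc, the opioid receptor genes Oprm1, Oprk1, Oprd1 and Oprl1, and the tachykinin receptor genes Tacr1 and Tacr3. All 10 were in the table, and all 10 were among the 15698 genes tested. They were chosen with earlier results of these data known. The tissue was the lateral ganglionic eminence (LGE), from which the striatal projection neurons arise, dissected from E18.5 mouse embryos for sequencing of poly(A) RNA. The conditional knockout (cKO) embryos carried Dlx1-Cre and 2 floxed alleles of Isl1 (Dlx1-Cre; Isl1 flx/flx, 4 libraries), and their littermate controls carried the same floxed alleles without Cre (Isl1 flx/flx, 4 libraries). Isl1 encodes a LIM-homeodomain transcription factor. Deletion is limited to cells in which Dlx1-Cre is or was active, and as no control carried Cre, effects of Cre itself and of the lost Isl1 alleles cannot be told apart.

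Opioid and tachykinin peptides are cut from larger precursor proteins, stored in dense-core vesicles and read by G protein-coupled receptors. In the adult striatum, substance P (from Tac1) and dynorphin (from Pdyn) mark the direct-pathway, or striatonigral, projection neurons, and enkephalin (from Penk) marks the indirect-pathway, or striatopallidal, neurons. The opioid receptors act through inhibitory G proteins, whereas the tachykinin receptors act through the phospholipase C pathway. The question that the comparison addresses is which of these transcripts differ between LGE with and without the Dlx1-Cre deletion of Isl1.

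Values are given in 2 forms. The adjusted read value is the authors' scaled and rounded value per gene and library, and RPKM is the same value scaled to gene length and to the library sum, so that levels of different genes can be compared. The adjusted values summed to between 23732455 and 24456923 per library, sums set by the authors' scaling, so depth is unknown. Isl1 itself was not lower in the libraries labelled cKO, with adjusted values of 4930, 5377, 5618 and 5971 in cKO and 3777, 3692, 4186 and 3517 in control. The table gives 1 value for the whole gene and the labels do not state which part Cre removes, so this value does not check the labels, and every direction below rests on them. Libraries also differed in markers of pallial neurons. Their mean log2 value was 4.84 in cKO replicate 4 and 5.91 to 6.70 in the other cKO libraries, against 4.04 in control replicate 3 and 6.09 to 6.68 in the other controls, so values without these 2 libraries are given where they differ.

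The start regions of Tac1, Tacr1, Pdyn and Oprm1 are shown because these transcripts fell in the cKO, as did Pnoc. RefSeq promoters on GRCm38.p6, each running from 250 bases before to 50 bases after a transcription start, were found for 7 of the 10 genes (12 start sites), all but Pnoc, Penk and Oprk1. Capitals mark the motifs searched, on both strands, namely TAATTA, a palindromic homeodomain motif that contains the homeodomain core TAAT, then TAAT itself, the full cAMP response element TGACGTCA, its shorter core TGACG, which lies within it, and the E-box CACGTG. Capitals in the form CGTCA are TGACG on the other strand. The Tac1 promoter lies at chr6:7554811-7555110 on the plus strand, the Tacr1 promoter at chr6:82402225-82402524 on the plus strand, the Pdyn promoter at chr2:129699889-129700188 on the minus strand, and the Oprm1 promoter at chr10:6758343-6758642 on the plus strand. For Pdyn and Oprm1, which have 2 and 3 start sites in the table, the one nearest the GENCODE start of the gene is printed. The printed Oprm1 start lies 87 bases from it, and the others lie 30064 and 30070 bases from it. With 1 value per gene, the start site that the reads came from is not known.
Tac1: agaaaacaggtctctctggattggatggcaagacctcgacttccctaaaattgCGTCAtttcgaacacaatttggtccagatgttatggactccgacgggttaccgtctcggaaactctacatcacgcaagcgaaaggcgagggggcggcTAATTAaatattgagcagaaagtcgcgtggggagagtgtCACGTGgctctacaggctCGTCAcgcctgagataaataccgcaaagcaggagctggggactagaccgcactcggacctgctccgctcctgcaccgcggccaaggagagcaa
Tacr1: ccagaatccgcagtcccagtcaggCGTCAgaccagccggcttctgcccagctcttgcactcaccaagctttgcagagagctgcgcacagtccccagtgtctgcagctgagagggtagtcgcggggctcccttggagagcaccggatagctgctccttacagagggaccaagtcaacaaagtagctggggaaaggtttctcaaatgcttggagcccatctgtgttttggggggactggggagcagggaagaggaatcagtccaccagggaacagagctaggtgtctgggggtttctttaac
Pdyn: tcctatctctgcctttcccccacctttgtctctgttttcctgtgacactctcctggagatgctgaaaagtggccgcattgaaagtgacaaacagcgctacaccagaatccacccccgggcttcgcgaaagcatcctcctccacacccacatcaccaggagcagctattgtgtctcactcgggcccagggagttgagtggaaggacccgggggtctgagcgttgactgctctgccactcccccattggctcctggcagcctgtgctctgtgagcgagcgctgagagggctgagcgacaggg
Oprm1: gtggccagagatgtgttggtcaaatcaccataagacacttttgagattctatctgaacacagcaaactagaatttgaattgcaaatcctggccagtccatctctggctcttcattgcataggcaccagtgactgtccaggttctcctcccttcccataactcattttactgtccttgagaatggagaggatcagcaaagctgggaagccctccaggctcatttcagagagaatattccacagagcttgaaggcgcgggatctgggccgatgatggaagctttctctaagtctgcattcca
The Tac1 promoter held TAATTA, beginning 100 bases before the start site, a motif present in 5.29% of all 32851 promoters of this length. It also held CACGTG, 61 bases before the start (7.15% of all promoters), and TGACG in its reverse form at 197 and 43 bases before it (20.8% of all promoters). The Tacr1 promoter held TGACG, in its reverse form, at 226 bases before the start. Neither printed sequence of Pdyn or Oprm1 held any of the 5 motifs. The core TAAT, found in 58% of all promoters, was present at the other Pdyn start site and at both other Oprm1 start sites. Among the genes that did not fall, Tacr3 held the reverse form of TGACG 58 bases before its start, Oprd1 held CACGTG 86 bases before its start, and Oprl1 held TAAT at 2 of its 3 start sites. TGACGTCA, present in 1.79% of all promoters, was at none of the 12 start sites.

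In the cKO, 5 of the 10 genes fell and none rose (limma, Benjamini-Hochberg adjusted p under 0.05 over all 15698 genes). Those that fell were Tac1, Pdyn and Pnoc among the precursors, Oprm1 among the opioid receptors, and Tacr1 of the tachykinin receptors. Over all genes tested, 6.66% were called, of which 3.78% fell and 2.87% rose as shares of all genes. The median log2 fold change was -0.74 over the 10 genes and 0.01 over all genes tested. In each of the 5 that fell, the 4 cKO libraries lay below all 4 controls, which was the case for 6.33% of all genes tested. Log2 fold changes were fitted to log2(value + 1), and errors are SE of the fit or SD over 4 libraries. The removal of 1 direction of variation from the deposited values reduced these errors by an unknown amount. In dissected tissue, fewer cells that express a gene and less RNA per cell cannot be told apart. The genes lie on 7 chromosomes, and the 5 that fell are on chromosomes 2, 6, 10 and 14.

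**Figure D1:**
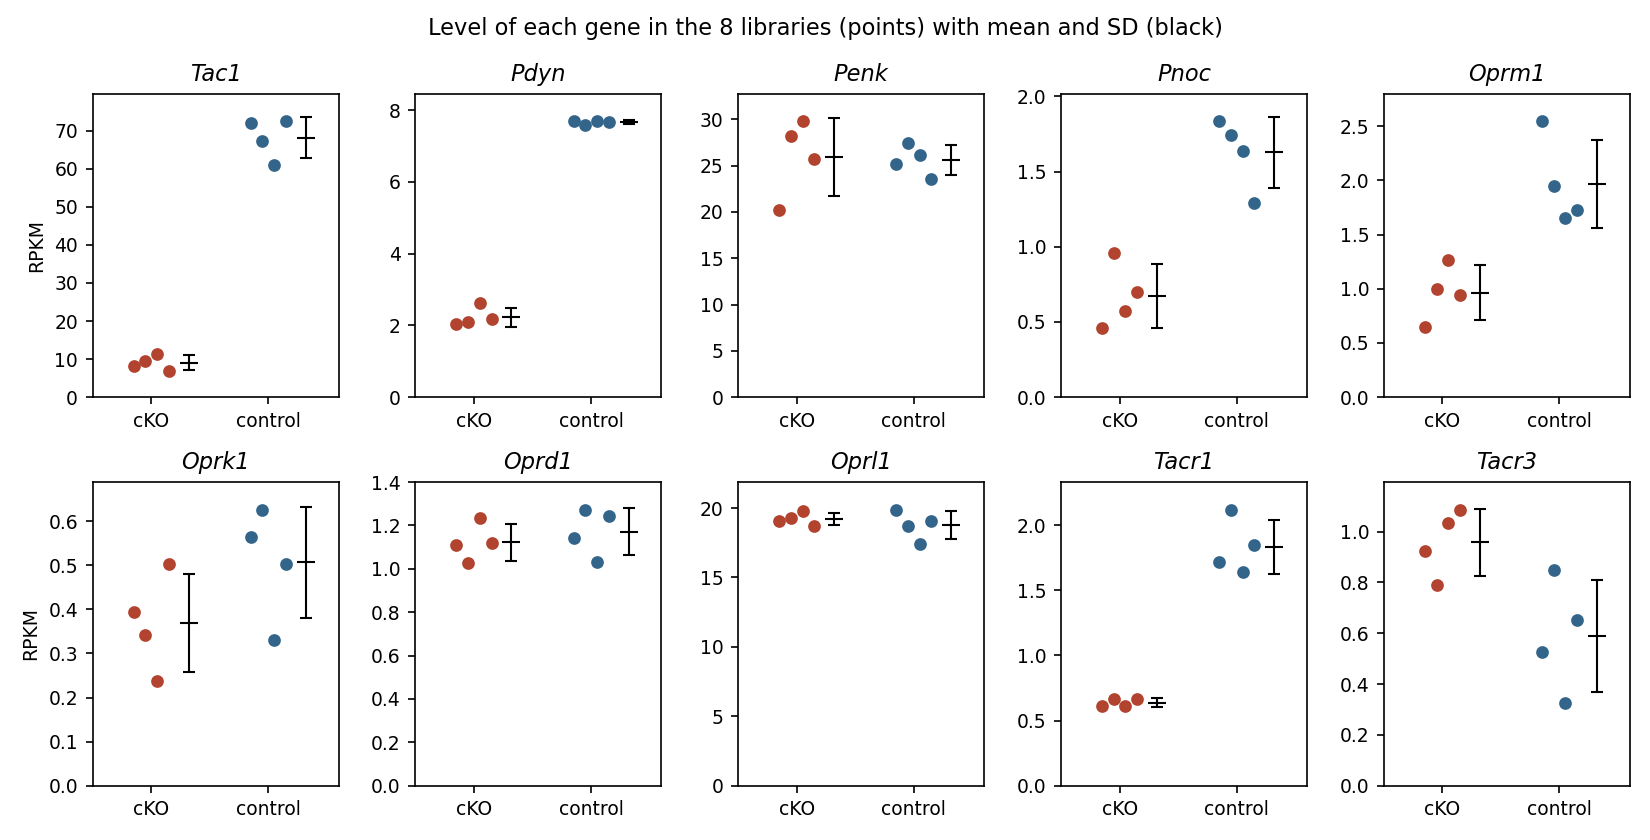
RPKM of each of the 10 genes (vertical axis, starting at 0, a scale of its own for each gene) in the 4 cKO libraries (left, red) and 4 control libraries (right, blue), with mean and SD in black. The cKO points lie below all control points for Tac1, Pdyn, Pnoc, Oprm1 and Tacr1, and the groups overlap for the other genes.

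Tac1 (ENSMUSG00000061762.12, chromosome 6, 7554879 to 7565834, plus strand, GRCm38) encodes the precursor of substance P and neurokinin A. Its adjusted values were 246, 284, 339 and 202 in cKO, against 2090, 2011, 1824 and 2134 in control. The highest cKO library was far below the lowest control, and cKO replicate 4 was the lowest of all. The cKO mean was 13.3% of the control mean, 268 ± 58.1 against 2015 ± 137 (SD, n = 4 each). The log2 fold change was -2.93 ± 0.13 (limma adjusted p = 2.19e-07), number 14 from the most negative among all 15698 genes tested. Per length, Tac1 stood at 9.01 ± 1.99 RPKM in cKO and at 68.2 ± 5.28 RPKM in control. It was detected in every cKO library, at 6.74 RPKM or more.

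Pdyn (ENSMUSG00000027400.11, chromosome 2, 129686565 to 129699844, minus strand) encodes prodynorphin, the source of the dynorphins that act on the kappa receptor. Its adjusted values were 126, 129, 161 and 135 in cKO, against 465, 472, 477 and 470 in control. The groups were far apart, and the 4 controls were nearly equal. The cKO mean was 29.2% of the control mean, with a log2 fold change of -1.77 ± 0.08 (limma adjusted p = 3.25e-07). The SD of the controls was 4.97, far below the square root of their mean, 21.7, which is the spread that counting alone would give to unadjusted counts of this size. Among the 3429 genes with control means above 100 and up to 500, the median ratio of variance to mean was 1.75, and 16 genes (0.467%) had a ratio as low as that of Pdyn, 0.0524, or lower. The SE of the fit is moderated across genes and does not rest on this SD alone.

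Pnoc (ENSMUSG00000045731.6, chromosome 14, 65400673 to 65425472, minus strand) encodes the precursor of nociceptin, the ligand of the receptor encoded by Oprl1. Its adjusted values were 24, 50, 30 and 37 in cKO, against 94, 92, 86 and 67 in control. All were low, and control replicate 4 came nearest to the cKO range. The log2 fold change was -1.28 ± 0.21 (limma adjusted p = 0.00311), with the cKO mean at 41.6% of the control mean. Per length, Pnoc was at 0.673 ± 0.214 RPKM in cKO and 1.63 ± 0.238 RPKM in control.

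Penk (ENSMUSG00000045573.9, chromosome 4, 4133531 to 4138819, minus strand), the enkephalin precursor, did not pass the test. Its adjusted values were 777, 1087, 1149 and 1000 in cKO and 952, 1066, 1015 and 902 in control. The groups overlapped, and cKO replicate 1 was the lowest library. The log2 fold change was 0.02, with a 95% confidence interval of -0.21 to 0.25 (limma adjusted p = 0.964), an interval that leaves out a fall of the size of Pnoc or larger. A830012C17Rik, not analysed here, overlaps Penk on the opposite strand.

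Because of these unequal changes the make-up of the precursor transcripts differed between the groups. In the cKO libraries Tac1 made up 19.1% to 26.8% of the summed RPKM of the 4 precursors, and in the controls 63.3% to 69%. The share of Penk was 65.1% to 72.8% in cKO and 22.4% to 27.1% in control. Pdyn held 5.13% to 6.6% in cKO and 7.22% to 7.96% in control, and Pnoc held 1.78% ± 0.479 in cKO and 1.58% ± 0.235 in control (SD, n = 4 each). The summed level of the 4 was 37.9 ± 5.95 RPKM in cKO, against 103 ± 4.45 RPKM in control. Tac1 was thus the leading precursor in every control library, and Penk in every cKO library.

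**Figure D2:**
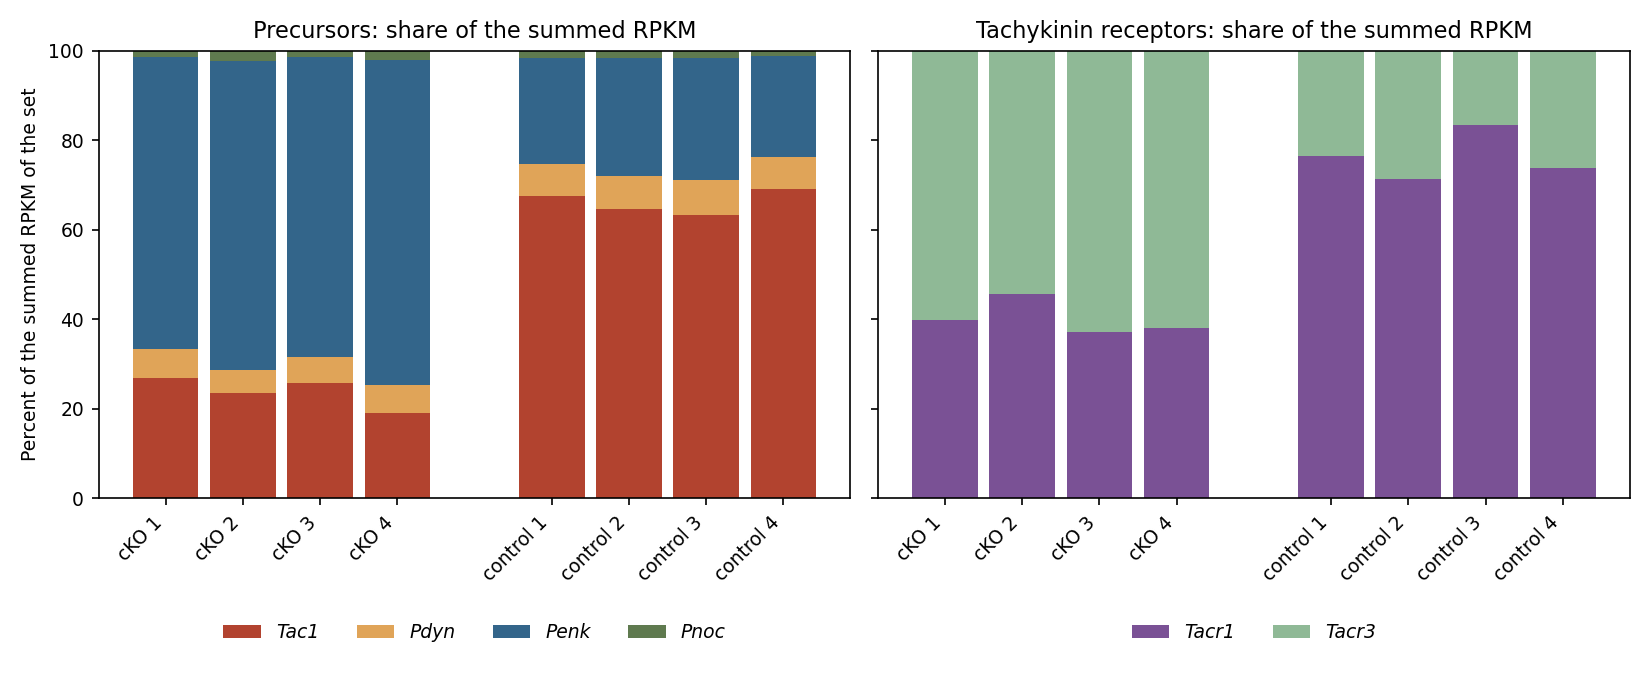
Share of each gene in the summed RPKM (vertical axis, percent) of the 4 precursors (left) and the 2 tachykinin receptors (right), 1 bar per library, cKO libraries left of control libraries. Tac1 holds 19.1% to 26.8% of the precursor sum in cKO and 63.3% to 69% in control, and Tacr3 holds more than Tacr1 in all 4 cKO libraries and less in all 4 controls.

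Apart from the 1 added to each value, the ratio of 2 genes within a library does not depend on a scaling factor shared by its genes. The changes were therefore also set against each other as log2 ratios, for 19 pairs (exact 2-sided permutation test over the 70 assignments of the libraries, adjusted over the pairs). The smallest p that 4 against 4 libraries can give is 0.0286. It was reached by 13 pairs, whose adjusted p was 0.0418 and whose groups did not overlap. The test takes the libraries as exchangeable, which the removal of a direction within the groups breaks, so these p-values may be too small. Tac1 over Pdyn had log2 ratios of 0.96, 1.13, 1.07 and 0.58 in cKO, against 2.17, 2.09, 1.93 and 2.18 in control, a difference of -1.16, so Tac1 fell further than Pdyn. Tac1 over Penk differed by -2.95, Pdyn over Penk by -1.79 and Tac1 over Pnoc by -1.65, and Penk over Pnoc by 1.30, each with an adjusted exact p of 0.0418. Pdyn over Pnoc differed by -0.49, with overlapping groups and an adjusted exact p of 0.194. This pair did pass with a pseudocount of 10 or with RPKM values (adjusted exact p = 0.0388 in both).

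**Figure D3:**
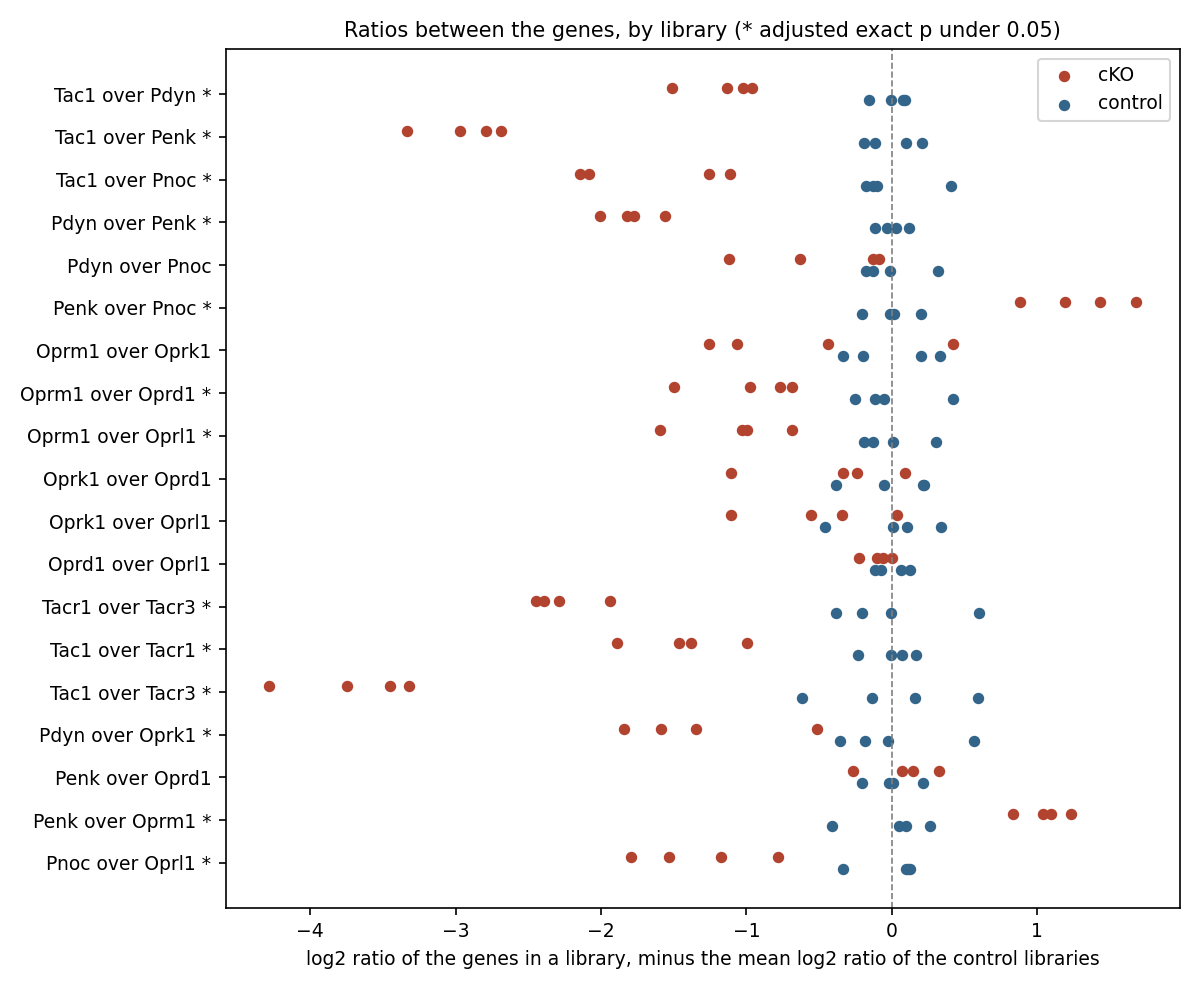
Log2 ratio of 2 genes in each library, minus the mean log2 ratio of the control libraries (horizontal axis), for 19 pairs, with cKO libraries in red above control libraries in blue. In the 13 pairs marked with a star the 4 cKO points lie on 1 side of all 4 control points, and the largest difference of means, -3.70, is that of Tac1 over Tacr3.

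Among the opioid receptors, the transcript of the mu receptor fell and those of the delta and nociceptin receptors overlapped between the groups. Oprm1 (ENSMUSG00000000766.18, chromosome 10, 6758506 to 7038198, plus strand) encodes the mu receptor, a marker of the striosome compartment of the striatum. Its adjusted values were 72, 111, 141 and 106 in cKO, against 278, 219, 185 and 191 in control. The groups did not overlap, and the highest cKO library, replicate 3, was near the lowest control. The log2 fold change was -1.04 ± 0.19 (limma adjusted p = 0.00594), with the cKO mean at 49.3% of the control mean. Ipcef1 and Gm10945 overlap Oprm1 on the opposite strand, and the labels do not say whether counting used the strand of the reads. Gm10945, which spans the printed Oprm1 start, was not analysed here. Ipcef1 had a log2 fold change of -0.21 ± 0.11 (limma adjusted p = 0.35), with adjusted values of 287 to 387 in cKO and 318 to 420 in control.

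Oprk1 (ENSMUSG00000025905.13, chromosome 1, 5588466 to 5606131, plus strand) encodes the kappa receptor, which binds dynorphin. Its adjusted values were low and overlapped, at 45, 39, 27 and 58 in cKO and 63, 72, 38 and 57 in control. The log2 fold change was -0.45, with a 95% confidence interval of -0.99 to 0.09 (limma adjusted p = 0.373). The lowest control was replicate 3 and the highest cKO library was replicate 4, the 2 libraries lowest in pallial markers, and without both of them the log2 fold change was -0.80 (adjusted p = 0.0867). The part of pallial tissue in this value was not tested.

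Oprd1 (ENSMUSG00000050511.1, chromosome 4, 132110726 to 132144486, minus strand) encodes the delta receptor, which binds enkephalin. It stood at 108, 100, 120 and 110 in cKO and 109, 125, 101 and 120 in control, a log2 fold change of -0.05 with a 95% confidence interval of -0.29 to 0.18 (limma adjusted p = 0.853). Oprl1 (ENSMUSG00000027584.16, chromosome 2, 181715016 to 181720985, plus strand), the nociceptin receptor gene, stood at 1531, 1546, 1585 and 1515 in cKO and 1564, 1516, 1408 and 1516 in control. Its log2 fold change was 0.04, with the narrowest 95% confidence interval of the 10 genes, -0.05 to 0.13 (limma adjusted p = 0.658). For both genes the groups overlapped, and the intervals leave out a fall of the size of Oprm1.

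The ratio of Oprm1 to Oprd1 differed by -0.98 on the log2 scale and that of Oprm1 to Oprl1 by -1.08 (adjusted exact p = 0.0418 for both), so the fall of Oprm1 was larger than the differences in these receptors. Against Oprk1 the ratio differed by -0.59, with overlapping groups and an adjusted exact p of 0.238. Oprl1 made up 87.8% to 89.9% of the summed RPKM of the 4 opioid receptors in cKO and 82.4% to 85.3% in control, and Oprm1 held 3.04% to 5.63% in cKO and 7.68% to 10.5% in control. The sum itself was 21.7 ± 0.589 RPKM in cKO and 22.4 ± 1.51 RPKM in control (SD, n = 4 each).

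**Figure D4:**
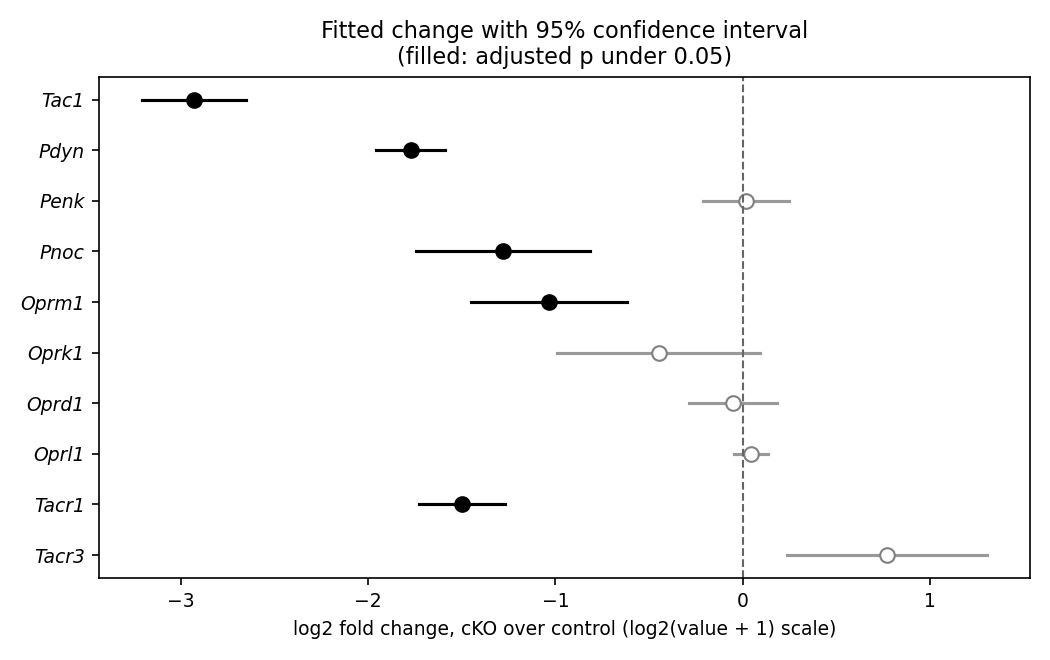
Fitted log2 fold change of each gene, cKO over control (horizontal axis), with its 95% confidence interval as a line, filled points marking an adjusted p under 0.05. The 5 filled points lie between -2.93 for Tac1 and -1.04 for Oprm1, and Tacr3 lies at 0.77 with an adjusted p of 0.0962.

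Of the tachykinin receptors Tacr1 fell, also relative to Tacr3. Tacr1 (ENSMUSG00000030043.11, chromosome 6, 82402334 to 82560104, plus strand) encodes the NK1 receptor, the preferred receptor of substance P, which in the rodent striatum is found on cholinergic and on somatostatin and nitric oxide synthase interneurons. Its adjusted values were 74, 81, 74 and 82 in cKO, against 205, 260, 201 and 223 in control. The 4 cKO values were close to each other and far below every control. The log2 fold change was -1.50 ± 0.10 (limma adjusted p = 5.00e-06), and the cKO mean was 35% of the control mean. Tacr3 (ENSMUSG00000028172.5, chromosome 3, 134829007 to 134934579, plus strand) encodes the NK3 receptor, which prefers neurokinin B. It stood at 84, 72, 94 and 100 in cKO and at 47, 78, 30 and 59 in control. Only control replicate 2 reached the cKO range.

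Tacr3 did not pass the test, with a log2 fold change of 0.77 ± 0.24 (limma adjusted p = 0.0962). Leaving out control replicate 2 took it past the threshold (0.97, limma adjusted p = 0.0216). In the authors' deposited table, in which 3.81% of genes fell and 2.74% rose (6.55% in all), its log2 fold change was 0.73 with an adjusted p of 0.0111. The lowest control and the highest cKO library were again the 2 with the lowest pallial markers, and without both of them the log2 fold change was 0.46 (adjusted p = 0.314). The part of pallial tissue in this value was not tested. The log2 ratio of Tacr1 to Tacr3 was -0.18, 0.17, -0.34 and -0.28 in cKO, against 2.10, 1.72, 2.70 and 1.90 in control, a difference of -2.27 (adjusted exact p = 0.0418). Tacr1 held 37.1% to 45.7% of the summed RPKM of these 2 receptors in cKO and 71.4% to 83.4% in control.

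Set against its receptors, Tac1 fell further than Tacr1, with a log2 ratio that differed by -1.43, and the ratio of Tac1 to Tacr3 differed by -3.70, the largest difference of the 19 pairs. Pdyn over Oprk1 differed by -1.32, Pnoc over Oprl1 by -1.32 and Penk over Oprm1 by 1.05, all with an adjusted exact p of 0.0418. Penk over Oprd1 differed by 0.07, with overlapping groups (adjusted exact p = 0.686). Of the 4 ligands, Tac1, Pdyn and Pnoc were thus lower relative to the receptor set against them, and Penk was higher relative to Oprm1.

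Per length, the 10 transcripts covered a wide range. In the cKO the order was Penk (26 RPKM), Oprl1 (19.2), Tac1 (9.01), Pdyn (2.23), Oprd1 (1.12), Oprm1 (0.963), Tacr3 (0.958), Pnoc (0.673), Tacr1 (0.637) and Oprk1 (0.370), as means of 4 libraries. Neighbours from Oprd1 down to Tacr1 overlapped in range and are not ordered beyond their spread. In the control the order was Tac1 (68.2 RPKM), Penk (25.6), Oprl1 (18.8), Pdyn (7.66), Oprm1 (1.97), Tacr1 (1.83), Pnoc (1.63), Oprd1 (1.17), Tacr3 (0.589) and Oprk1 (0.506). There, Oprm1, Tacr1 and Pnoc overlapped in turn, as did Tacr3 with Oprk1. The mean RPKM over all 8 libraries was below the cKO mean of Tac1 in 53.3% of the tested genes. It was below the control mean of Tac1 in 93.7%.

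Genes whose pattern over the 8 libraries was nearest to each gene that fell were found by the root mean square difference of centred log2(value + 1). The search covered 11914 genes with a mean of at least 1 RPKM. Symbols that start with Gm and a digit or end in Rik were left out. Nearest to Tac1 were Col6a1 (0.346), Atp6ap1l (0.353) and Slc22a3 (0.364). Nearest to Pdyn were Cntn3 (0.118), Frmd6 (0.119) and Chst15 (0.155), and nearest to Tacr1 were Rprm (0.097), Perp (0.164) and Sv2b (0.179). Pnoc was nearest to Crabp1 (0.266), Ramp1 (0.27) and Perp (0.273), and Oprm1 to Otof (0.182), Egr1 (0.195) and Arc (0.213). Their log2 fold changes ran from -3.33 for Slc22a3 to -0.82 for Arc, a direction that the choice by likeness to genes that fell fixes in advance. The adjusted values of Rprm, nearest to Tacr1, averaged 505 ± 31.4 in cKO and 1375 ± 168 in control (SD, n = 4 each).

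The gene lists in this and the following paragraphs were chosen with earlier results of these data known. Their called shares are therefore no independent contrast with the share of all genes. Of 17 genes of prohormone processing and dense-core vesicles, 2 fell and 3 rose (29.4% called, against 6.66% of all genes tested), with a median log2 fold change of 0.05. Cadps2, which primes dense-core vesicles for release, rose by 1.87 ± 0.20 (limma adjusted p = 0.000141). The other 4 calls did not hold in every fit. The amidating enzyme gene Pam, needed to make substance P, had a log2 fold change of -0.24 and the convertase inhibitor gene Pcsk1n of -0.26, while the convertase genes Pcsk2 and Pcsk5 stood at 0.21 and 0.56. Their limma adjusted p lay between 0.0254 and 0.0394, and leaving out 1 library ended the Pam and Pcsk2 calls in 5 of 8 fits each, the Pcsk1n call in 4 and the Pcsk5 call in 7, with adjusted p up to 0.101. All 4 calls also ended without control replicate 3 and cKO replicate 4 together (limma adjusted p from 0.0589 for Pam to 0.162 for Pcsk5). In the authors' deposited table Pcsk1n and Pcsk5 passed (adjusted p = 0.0476 and 0.00558), and Pam and Pcsk2 did not (0.0563 and 0.0792). Of 12 peptide-degrading enzymes, Nln, the neurolysin gene, rose by 0.22 ± 0.04 (adjusted p = 0.00819) and none fell (8.33% called), and the median was -0.02. The Nln call was lost without control replicate 3 and cKO replicate 4 together (adjusted p = 0.0828).

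Of 26 genes of opioid receptor transduction, 4 fell and 3 rose, 26.9% of the list against 6.66% of all genes tested, and the median log2 fold change was 0.01 in both. Rgs4, a regulator that speeds the end of G protein signalling, was at 838, 707, 889 and 708 in cKO, against 2412, 1767, 2053 and 2172 in control, a log2 fold change of -1.42 ± 0.10 (limma adjusted p = 4.62e-06). Grk5, a receptor kinase gene, fell by 0.75 ± 0.07, the cyclase gene Adcy1 by 0.44 ± 0.06 and Rgs17 by 0.32 ± 0.06 on the log2 scale. The Rgs17 call was lost without control replicate 3 and cKO replicate 4 together (limma adjusted p = 0.0656). Kcnj5, a subunit of G protein-gated potassium channels, was at 83, 71, 82 and 88 in cKO, against 16, 15, 17 and 16 in control, a rise of 2.27 ± 0.14 (adjusted p = 2.57e-06). The inhibitory G protein gene Gnai1 rose by 0.47 ± 0.04. The third riser, Adcy8, had low values of 52 to 95 in cKO and 30 to 47 in control (0.90 ± 0.21, limma adjusted p = 0.0258). Leaving out cKO replicate 2 or 4 or control replicate 1, 3 or 4 ended the Adcy8 call (adjusted p up to 0.0824). Without control replicate 3 and cKO replicate 4 together the limma adjusted p of Adcy8 was 0.129. Of 13 genes of tachykinin receptor transduction, Prkca, a protein kinase C gene, fell (-0.30 ± 0.07, adjusted p = 0.0304) and none rose. This was 7.69% of the list, near the share of all genes, and the median was -0.07. Leaving out cKO replicate 2, 3 or 4 or control replicate 3 or 4 ended the Prkca call (adjusted p up to 0.0933). It also ended without control replicate 3 and cKO replicate 4 together (limma adjusted p = 0.171).

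None of 14 transcription factor genes known to act on peptide genes passed, beside 6.66% of all genes, and their median was 0.02. Single members passed elsewhere, namely Fos without control replicate 3 (-0.84, limma adjusted p = 0.022), Jun without cKO replicate 1 (0.18, adjusted p = 0.0307), and Junb with RPKM values (-0.27, adjusted p = 0.0431) or without the mean trend (adjusted p = 0.0255). In the authors' deposited table Fos had a log2 fold change of -0.65 with an adjusted p of 0.017. None of the 5 other opioid and tachykinin genes listed in the table passed, with a median of -0.04, Pomc among them at 36.8 ± 2.99 in cKO and 35 ± 6.83 in control (SD, n = 4 each). Of 12 other neuropeptide precursors in the table, Npy fell by 0.71 ± 0.13 on the log2 scale (limma adjusted p = 0.00495) and none rose. This was 8.33% of the list, near the share of all genes, and the median was -0.21. Nts, at 203 to 235 in cKO and 126 to 186 in control, did not pass (0.44 ± 0.12, limma adjusted p = 0.0616). In the authors' deposited table the adjusted p of Nts was 0.019. Sst, also on this list and lower on average in cKO, is given below.

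**Figure D5:**
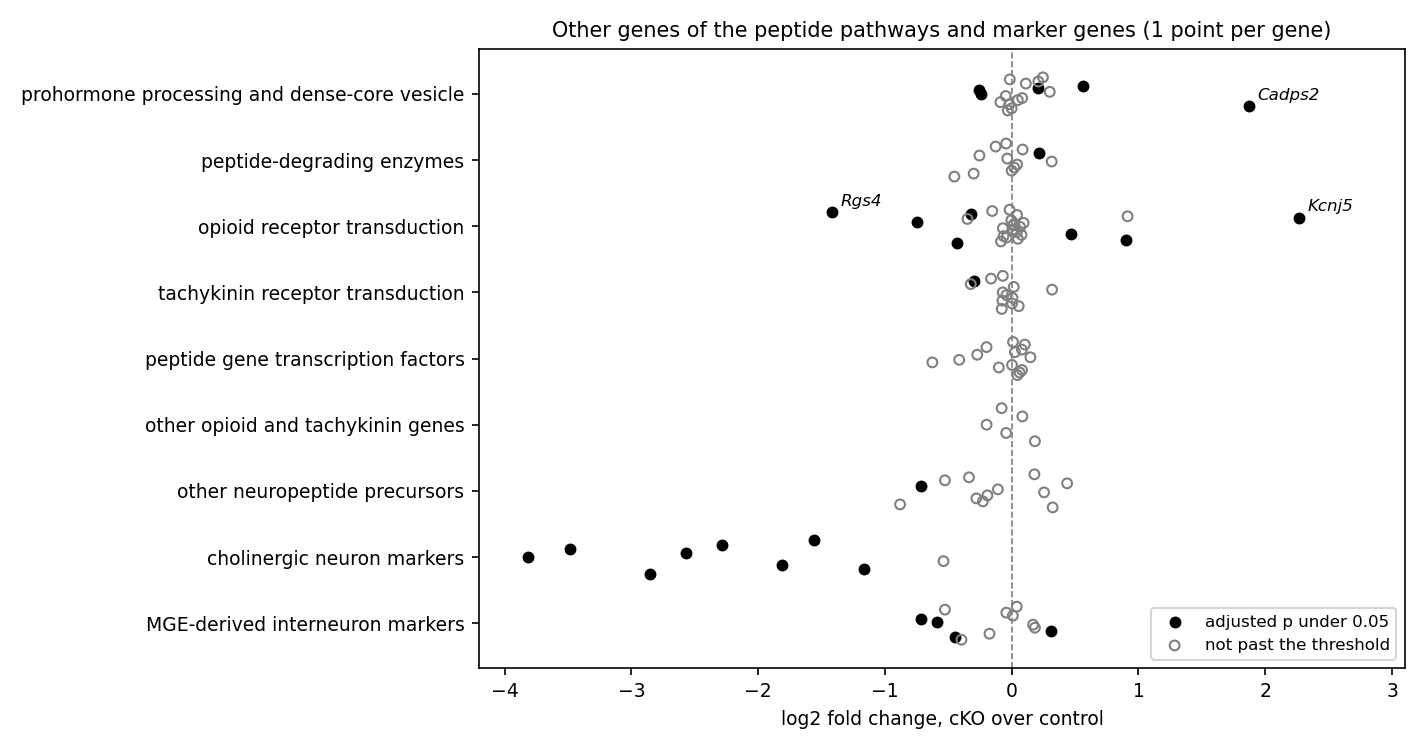
Log2 fold change, cKO over control (horizontal axis), of the genes of 7 peptide pathway lists and 2 marker lists, 1 point per gene, filled where the limma adjusted p was under 0.05. Most pathway genes lie near 0, Rgs4 stands out at -1.42 and Kcnj5 and Cadps2 at 2.27 and 1.87, and 8 of 9 cholinergic markers lie below -1.

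Markers of the cell types that carry these transcripts in the mature striatum, and of other cells the dissection could hold, were read from the same fit. These lists too were chosen with earlier results of these data known, so their called shares are no independent contrast. Of 9 striatonigral markers, 4 fell (Slc35d3 by 2.05, Plxnd1 by 1.68, Chrm4 by 1.05 and Zfp521 by 0.33 on the log2 scale) and 1, Isl1, rose, with a list median of -0.22. Isl1 is the floxed gene itself, with 1 value for the whole gene. Called shares were 55.6% of this list, 37.5% of the striatopallidal and 60% of the striosome list below, against 6.66% of all genes tested. For Drd1, their defining dopamine receptor gene, the log2 fold change was -0.20 ± 0.08 (limma adjusted p = 0.217), and passed without control replicate 3 (adjusted p = 0.0421). Of 8 striatopallidal markers none fell and 3 rose, Adora2a by 0.31, Drd2 by 0.20 and Ptprm by 0.19, with a median of 0.21. Leaving out 1 library ended the calls of Drd2 and of Ptprm in 6 of 8 fits each, with adjusted p up to 0.108. Neither passed under the other scalings (limma adjusted p from 0.0611 to 0.0695). In the authors' deposited table their adjusted p was 0.122 for Drd2 and 0.12 for Ptprm. Of 5 striosome markers besides Oprm1, 3 fell, Nr4a1 by 0.74, Bach2 by 0.23 and Sema5b by 0.15, with a median of -0.20. The Sema5b call ended in 6 of the 8 fits with 1 library left out (adjusted p up to 0.116). In the authors' deposited table the adjusted p of Sema5b was 0.225. The part of these neurons in the falls of Tac1, Pdyn and Oprm1 was not tested.

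Beside Tacr1, 8 of 9 cholinergic markers fell and none rose (88.9% called, against 6.66% of all genes tested), with a median of -2.29. Their summed adjusted value was 344 to 609 in cKO and 928 to 1490 in control, and Chat, the gene of acetylcholine synthesis, was at 0, 2, 2 and 1 in cKO and 13, 21, 15 and 9 in control. Among 12 interneuron markers of the medial ganglionic eminence there were 3 falls and 1 rise (33.3% called), with a median of -0.11. Their summed value was 8679 to 9941 in cKO and 9538 to 10754 in control. These include Npy, above, Cxcr4 (-0.44 ± 0.08), Maf (0.31 ± 0.05) and the nitric oxide synthase gene Nos1 (-0.59 ± 0.14, limma adjusted p = 0.0265). Leaving out 1 library ended the Nos1 call in 5 of 8 fits, with adjusted p up to 0.0818. Sst, the somatostatin gene, was at 404, 558, 538 and 636 in cKO and 784, 970, 629 and 696 in control, with groups that overlapped by 1 library, and did not pass (-0.53 ± 0.15, limma adjusted p = 0.056). Its adjusted p was 0.0477 and 0.0472 under the other scalings, 0.0441 without cKO replicate 4 and 0.0422 without control replicate 3. Without both of these libraries the log2 fold change of Sst was -0.71 (limma adjusted p = 0.0343). A block for the replicate number gave a limma adjusted p of 0.0208. In the authors' deposited table the adjusted p of Sst was 0.0247. The part of either cell type in the fall of Tacr1 was not tested.

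Of 10 markers of amygdala and pallidum, 1 fell, Prkcd by 0.86 ± 0.08, and 1 rose, Dlk1 by 0.87 ± 0.07. This was 20% of the list, against 6.66% of all genes tested. The median was 0.07 and the summed value 11236 to 11825 in cKO and 10636 to 12297 in control. Of 12 microglial markers 11 rose and none fell (91.7% called), with a median of 0.80. Their summed value was 3884 to 4642 in cKO and 2472 to 2747 in control. Of 12 pallial markers, 1 rose, Bhlhe22 by 2.61 ± 0.39, and none fell (8.33% called, near the share of all genes), with a median of 0.05. Their summed value was 911 to 1951 in cKO and 329 to 1889 in control. The part of amygdala, pallidum, microglia and pallial cells in the changes of the 10 genes was not tested. With cKO replicate 4 and control replicate 3 both left out, the same 5 genes fell, with log2 fold changes of -2.85 for Tac1, -1.76 for Pdyn, -1.57 for Tacr1, -1.31 for Pnoc and -1.11 for Oprm1.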

How the data were processed

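Poly(A) RNA of the LGE was measured in 4 cKO and 4 control embryos, grouped by the labels, which name no litter. Per the labels' protocols, libraries came from 1 ug of total RNA and a directional kit, read singly over 85 bp. Per the submitters' processing notes, STAR, featureCounts and edgeR were used on mm10. The deposited columns named raw hold a score, since the authors had scaled and adjusted them before rounding, a step seen in the values. Upper quartiles lay between 1624 and 1635, and 1 direction within the groups was missing (singular value 0.000241, the next 0.0433). The authors' deposited RPKM values are these per gene length and column sum. No count model was fitted.

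The groups were compared with limma 3.58.1 (mean trend, R 4.3.3, data.table version 1.17.8) on log2(value + 1), for the 15698 genes at 1 or more in at least 4 libraries, with Benjamini-Hochberg adjustment and a threshold of 0.05. Ratios were tested by exact permutation (scipy 1.17.1, numpy 2.4.6, pandas 2.3.3, Python 3.11.15, figures with matplotlib 3.10.9). Alternatives were the pseudocount, the filter, 2 scalings, RPKM, a replicate block, the missing direction as a covariate, no trend, libraries left out, and the authors' deposited log2 fold change and p-value columns, whose name puts control first although the sign is knockout over control.

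The 10 genes and 15 further lists were chosen with earlier results of these data known. Named genes were the 10, up to 6 called genes per list with the smallest p, Drd1, Drd2, Adora2a, Chat and Isl1, and the 3 nearest patterns per called gene. Adcy8, Pomc, Sst, Nts, Fos, Jun, Junb and Ipcef1 were named after their values were seen. Coordinates are from GENCODE on GRCm38, the assembly of mm10, and promoters from RefSeq on GRCm38.p6. Limma p-values rest on the spread between these libraries, moderated across genes. Exact p-values rest on the assignments of the libraries and cannot go below 0.0286.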

Additional observations from a re-analysis of the deposited data

How the results depend on the processing

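All 5 falls (Tac1, Pdyn, Pnoc, Oprm1 and Tacr1) passed under each of the 19 alternatives, which include leaving out each library in turn. Over these, the log2 fold change lay between -3.05 and -2.80 for Tac1, -1.85 and -1.71 for Pdyn, -1.57 and -1.38 for Tacr1, -1.46 and -1.09 for Pnoc, and -1.18 and -0.86 for Oprm1. The number of the 10 genes that rose was 0, and 1 (Tacr3) in the authors' deposited table and without control replicate 2, a range of 0 to 1 when 1 library was left out. Penk, Oprk1, Oprd1 and Oprl1 passed under none. Over all genes, 1045 were called (594 fell, 451 rose). Leaving out 1 library gave 659 to 959 calls, 403 to 556 falls and 256 to 414 rises, with the lowest number of calls, falls and rises without control replicate 4, and 287 rises without cKO replicate 4. Without control replicate 3 and cKO replicate 4 together there were 610 calls, 394 falls and 216 rises, and with the missing direction charged to the model 290 rises. Either other scaling left the members' calls as they were. The 13 pairs past the threshold became 14 with a pseudocount of 10 or with RPKM. With 1 library left out the exact test cannot go below 0.0571, so those ratios are values alone, and none of the 13 turned its sign. Places in the level order moved without cKO replicate 2 (6 of 10 kept), cKO replicate 3 (8) or control replicate 1 (8). The labels give no pairing by replicate number. The correlation of deviations of same-numbered libraries was 0.23, -0.03, -0.11 and -0.53 for numbers 1 to 4. As 1 direction within the groups had been removed, these correlations cannot show whether same-numbered libraries share a litter or batch. The replicate block gave 648 falls and 551 rises over all genes, and the same 5 falls among the members, and in no pair did a cKO library correlate best with its own number. For the ratios, 4 pairs allow no p below 0.125. The filter of at least 1 RPKM on the mean leaves out Oprk1 and Tacr3, and the count models listed as an alternative were not run because the values are no counts.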
